A study of Mus musculus with 10 samples.

Results

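The genes described here carry the transforming growth factor beta (TGF-beta) and bone morphogenetic protein (BMP) signals of the kidney. They were taken by name: the ligands Tgfb1 and Tgfb2, the receptors Tgfbr1 and Tgfbr2, the latent TGF-beta activator Thbs1, the signal carrier Smad3, the targets Ccn2 and Tgfbi, and Smad7 and Bmp7, which oppose the pathway. All 10 were found among the 18193 genes that had a probe set of their own on the array. Where a gene had several, the brightest on average stood for it. The test covered 11486 genes whose mean log2 value was at least 5.534 (the midpoint of the array's probe sets, controls aside), and 8 of the 10 genes were among them. Tgfb1 and Tgfb2 lay below that level. Their fits come from the same model run without the level filter.

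Expression was measured with 1 Affymetrix array per mouse on kidney cortex from 10 mice of the FVB/N strain at 20 weeks of age. All 10 mice had a partial kidney ablation followed by a uninephrectomy, in both drug groups. Treatment began 6 weeks after the first operation and 4 weeks after the second. It lasted 6 weeks, with the renin inhibitor aliskiren at 50 mg/kg per day in 5 mice and the angiotensin II type 1 receptor blocker losartan at 500 mg/l in the other 5 mice. Mice without a drug or without surgery were not analysed here, so each value below is one drug set against the other. Whole cortex was used, and a lower value can mean fewer cells of a type or less RNA per cell, which cannot be told apart.

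TGF-beta is secreted in a latent complex and is released by activators such as thrombospondin-1 and the alpha-v integrins. The active ligand binds the type II receptor, which recruits and phosphorylates the type I receptor, and this in turn phosphorylates SMAD2 and SMAD3. In the kidney the pathway is known for driving fibroblast activation and matrix deposition, with angiotensin II as one of its inducers. SMAD7, itself induced by TGF-beta, blocks the type I receptor, and BMP7, made by tubules and podocytes, signals through other SMADs and counters fibrosis in rodent models.

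The promoters of 4 of these genes are shown because Tgfb2 and Tgfbi varied together between mice, as described further on, while Tgfb1 and Smad3 passed the test with no other gene over all mice. With drug means subtracted, Tgfb1 did pass with both Tgfb2 and Tgfbi. Each sequence is the 250 bases before the RefSeq gene start (GRCm38.p6), 5′ to 3′ on the gene's strand, and capitals mark matches on either strand to the SMAD box CAGACA, the AP-1 site TGANTCA, the GC box GGGCGG or the TATA box, spelled TATAAA. Tgfb2 lies at chr1:186705990-186706239 on the minus strand, Tgfbi at chr13:56609336-56609585 on the plus strand, Tgfb1 at chr7:25686752-25687001 on the plus strand and Smad3 at chr9:63757995-63758244 on the minus strand.
Tgfb2: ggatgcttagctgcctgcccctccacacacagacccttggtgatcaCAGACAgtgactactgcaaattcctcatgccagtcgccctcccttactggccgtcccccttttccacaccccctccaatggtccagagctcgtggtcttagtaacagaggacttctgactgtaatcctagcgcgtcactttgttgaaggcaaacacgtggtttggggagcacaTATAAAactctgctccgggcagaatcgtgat
Tgfbi: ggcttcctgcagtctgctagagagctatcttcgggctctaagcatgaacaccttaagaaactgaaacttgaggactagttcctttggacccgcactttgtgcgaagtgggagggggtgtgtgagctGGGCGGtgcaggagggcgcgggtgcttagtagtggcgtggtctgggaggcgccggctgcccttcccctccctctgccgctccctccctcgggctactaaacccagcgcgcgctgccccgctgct
Tgfb1: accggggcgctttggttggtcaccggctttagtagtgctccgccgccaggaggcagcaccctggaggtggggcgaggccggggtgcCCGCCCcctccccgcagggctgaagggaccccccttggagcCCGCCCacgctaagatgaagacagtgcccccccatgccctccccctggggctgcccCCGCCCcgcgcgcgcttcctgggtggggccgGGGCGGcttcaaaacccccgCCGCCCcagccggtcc
Smad3: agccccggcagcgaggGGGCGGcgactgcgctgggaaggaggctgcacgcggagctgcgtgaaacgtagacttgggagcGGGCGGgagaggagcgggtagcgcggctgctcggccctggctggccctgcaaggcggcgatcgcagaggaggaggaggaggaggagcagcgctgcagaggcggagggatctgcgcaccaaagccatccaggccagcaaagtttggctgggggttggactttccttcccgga
The Tgfb2 sequence holds 1 TATA box, beginning 31 bases before the start, and 1 SMAD box, beginning 204 bases before it. The Tgfb1 sequence holds 5 GC boxes and neither of those motifs, the Smad3 sequence 2 GC boxes and the Tgfbi sequence 1. No AP-1 site was found in these 4 windows. Tgfbr1 and Tgfbr2, which also varied with Tgfb2, are not shown. The Tgfbr2 window holds none of the 4 motifs. Of 2 Tgfbr1 windows, 1 holds 2 GC boxes and the other 1 SMAD box. Among 32851 RefSeq promoters of the same length, 17.1% hold the SMAD box, 6.75% the AP-1 site, 32.7% the GC box and 12.4% the TATA box. The G and C content was 53.6% for Tgfb2, 62.4% for Tgfbi, 75.2% for Tgfb1 and 69.2% for Smad3, against a median of 52.4% over all promoters. The matches are a description of letters, not of bound sites.

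Marker genes were set beside the cortex label, which their levels alone do not test. The 10 proximal tubule markers were all tested, and their mean log2 value lay between 12.70 and 12.92 in aliskiren mice and between 12.64 and 13.09 in losartan mice. The 10 loop, distal tubule and collecting duct markers averaged 10.73 to 11.26 in aliskiren mice and 10.94 to 11.33 in losartan mice. Of 6 podocyte markers with a probe set, 4 were tested, and Nphs1 and Wt1 lay below the level filter. Losartan mouse 3 stood apart from the rest of the series: it held the highest value of the 10 mice for 29.2% of all genes tested and the lowest for 24.9%. Its perirenal fat markers averaged 12.48, where the other losartan mice lay between 7.80 and 7.98. Aliskiren mice lay between 7.82 and 10.35 on that list. Differences and list counts that move by over 1.5 times or change sign without losartan mouse 3 are given both ways.

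No gene of the 10 passed the test between the drugs. With limma and Benjamini-Hochberg adjustment over all genes tested, 0 of the 10 passed an adjusted p of 0.05, and the background in this comparison was 0 of 11486 genes, or 0%. At an unadjusted p under 0.05 there were 0 of the 10 genes, where the background was 4.72%. The drug groups overlapped for all 10 genes, and 0.914% of all genes tested had groups that did not overlap (0.496% with aliskiren lower). Of the 8 tested members, 6 had a lower value with aliskiren and 2 a higher one, with a median difference of -0.11 on the log2 scale, beside -0.01 over all genes tested, of which 53.8% had a lower value. Without losartan mouse 3, Tgfbi turned to 0.02 and Tgfbr1 to 0.05, and the other tested members kept their direction. The lower ones were then Ccn2 at -0.25, Bmp7 at -0.18, Smad3 at -0.09 and Thbs1 at -0.08. Smad7 at 0.05 and Tgfbr2 at 0.14 were higher, as were Tgfbi and Tgfbr1, so the lower values of the members depended largely on that mouse. In that fit 50.6% of all genes tested had a lower value.

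Ccn2, the connective tissue growth factor gene and an early TGF-beta target, showed the widest gap between group means. Its log2 values in aliskiren mice 1 to 5 were 10.34, 9.15, 9.46, 9.001 and 9.38, against 10.45, 9.69, 10.83, 9.14 and 9.57 in losartan mice 1 to 5. High and low mice occurred in both groups: aliskiren mouse 1 and losartan mice 1 and 3 were all above 10, and the other 7 mice were below it. The group means were 9.47 ± 0.52 with aliskiren and 9.94 ± 0.69 with losartan (SD, n = 5 each). The difference of -0.47 (SE 0.34, limma adjusted p = 0.948) was smaller than the spread between mice, with a 95% interval from -1.22 to 0.29, that is from 0.428-fold to 1.22-fold. Leaving out losartan mouse 3 gave -0.25, and leaving out aliskiren mouse 1 instead gave -0.69.

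Tgfbi encodes a secreted matrix protein named for its induction by TGF-beta. Its log2 values were 7.89, 7.10, 7.06, 6.44 and 7.33 in aliskiren mice 1 to 5, against 7.78, 7.29, 8.78, 6.45 and 7.06 in losartan mice 1 to 5. Mouse 4 of each drug was the lowest of its group, and losartan mouse 3 was the highest of all. The difference was -0.31 (SE 0.40, limma adjusted p = 0.96), with a 95% interval from -1.20 to 0.58. It turned to 0.02 without losartan mouse 3. All 4 Tgfbi probe sets passed the level filter and gave differences between -0.32 and -0.21, and the other 3 followed the representative one with r between 0.96 and 0.98 over the 10 mice, as a description.

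Thbs1, which encodes the activator thrombospondin-1, had values of 6.97, 6.61, 6.28, 6.51 and 6.38 in aliskiren mice 1 to 5, against 6.89, 6.87, 7.58, 6.48 and 6.27 in losartan mice 1 to 5. Losartan mouse 3 was again the highest, followed by aliskiren mouse 1. The difference of -0.27 (SE 0.23, limma adjusted p = 0.949) became -0.08 without losartan mouse 3. A second Thbs1 probe set past the filter gave -0.38 (SE 0.21). One further probe set, shared with Pald1, was not used.

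The ligand genes gave low signals. Tgfb2 had 5.54, 5.09, 4.89, 4.498 and 4.95 in aliskiren mice 1 to 5, against 5.35, 5.45, 6.31, 4.60 and 4.74 in losartan mice 1 to 5. Only losartan mouse 3 and aliskiren mouse 1 reached the level used as filter for the mean, 5.534. The difference in the fit without the filter was -0.30 (SE 0.30, limma adjusted p = 0.986; exact permutation p = 0.429), and it was -0.04 without losartan mouse 3. Its 4 probe sets all lay below the filter and all had lower values with aliskiren, from -0.33 to -0.23. The dimmest of the 4 had an unadjusted limma p of 0.0409 in the fit over probe sets, with an adjusted p of 0.991.

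Tgfb1, the most studied profibrotic isoform, lay between 4.75 and 5.32 in aliskiren mice and between 4.81 and 5.18 in losartan mice. Its difference was 0.13 (SE 0.12, limma adjusted p = 0.986 without the filter; exact permutation p = 0.381), and the 95% interval stayed within 1.5-fold. That interval is of a signal below the level filter and may not bound a change in Tgfb1 RNA. The second Tgfb1 probe set was lower still in signal, had a difference of 0.08 and ran at r = -0.29 with the first over the 10 mice, so the mouse-to-mouse pattern of Tgfb1 rests on a single dim probe set.

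The receptor genes gave small differences with narrow intervals. Tgfbr1, encoding the type I receptor kinase, had a median of 9.88 in aliskiren mice (9.75 to 10.07) and of 9.90 in losartan mice (9.77 to 10.39). The difference was -0.06 (SE 0.12, limma adjusted p = 0.976), and the 10.39 belonged to losartan mouse 3, without which the difference was 0.05. Tgfbr2, encoding the type II receptor that binds the ligand, had a median of 10.62 in aliskiren mice (10.43 to 10.70) and of 10.46 in losartan mice (10.25 to 11.02), with losartan mouse 3 the highest again. Its difference was 0.02 (SE 0.13, limma adjusted p = 0.995), and 0.14 without that mouse, and a dimmer probe set past the filter gave 0.07. For both receptors the 95% interval excluded a change of 1.5-fold in either direction.

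Smad3, which carries the signal to the nucleus, had the smallest p of the 10 genes. Its log2 values were 8.93, 9.03, 9.15, 8.95 and 9.06 in aliskiren mice 1 to 5, against 9.09, 9.27, 9.37, 8.99 and 9.12 in losartan mice 1 to 5. The difference was -0.14 (SE 0.08), with an unadjusted limma p of 0.0962, an adjusted p of 0.945 and an exact permutation p of 0.119, and its 95% interval ran from 0.802-fold to 1.02-fold. It was -0.09 without losartan mouse 3 and -0.09 with the mean of all its probe sets, while without losartan mouse 4 it was -0.19, at an unadjusted p of 0.036 and a limma adjusted p of 0.695. Both groups shared the range from 8.99 to 9.15. The other 2 Smad3 probe sets were below the filter, with differences of -0.12 and -0.02.

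Smad7 and Bmp7, which oppose the profibrotic arm, also passed no test between the drugs. Smad7 had 7.68, 7.68, 7.89, 7.98 and 7.89 in aliskiren mice 1 to 5, against 7.78, 7.74, 7.82, 7.70 and 7.86 in losartan mice 1 to 5. All losartan values lay inside the range of the aliskiren mice. Its difference was 0.04 (SE 0.07, limma adjusted p = 0.969), between 0.924-fold and 1.15-fold by its 95% interval, and a second probe set past the filter gave 0.05.

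Bmp7 had 8.14, 8.55, 8.48, 8.43 and 8.41 in aliskiren mice 1 to 5, against 8.59, 8.61, 8.08, 8.61 and 8.53 in losartan mice 1 to 5. The lowest values were those of losartan mouse 3 and aliskiren mouse 1, which had the highest Tgfb2, Thbs1 and Tgfbi. The difference was -0.08 (SE 0.12, limma adjusted p = 0.965), with a 95% interval from 0.792-fold to 1.13-fold. Without losartan mouse 3 it was -0.18 (SE 0.08), at an unadjusted p of 0.0454 and a limma adjusted p of 0.947. The 3 Bmp7 probe sets disagreed on the direction, at -0.08, 0.05 and -0.23. The second probe set also placed losartan mouse 3 lowest at 7.75 and aliskiren mouse 1 next at 7.87, whereas on the third, the dimmest, aliskiren mouse 3 was lowest at 6.20 and losartan mouse 3 had 6.41.

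**Figure D1:**
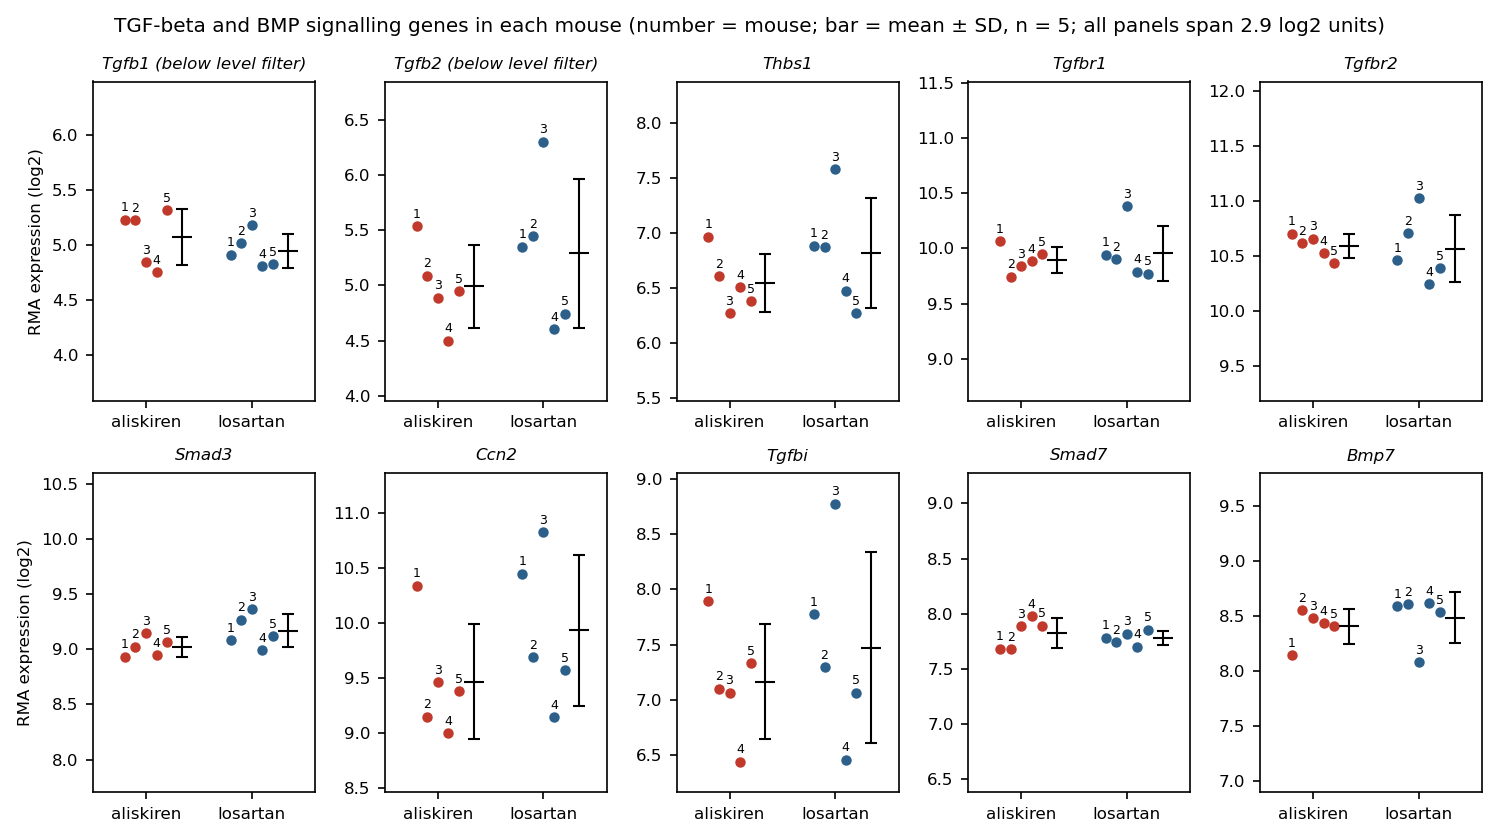
RMA expression (log2) of each of the 10 genes in the 5 aliskiren mice and the 5 losartan mice, with points numbered by mouse and bars showing mean ± SD. The groups overlap in every panel, and losartan mouse 3 is highest for 7 of the 10 genes and lowest for Bmp7.

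**Figure D2:**
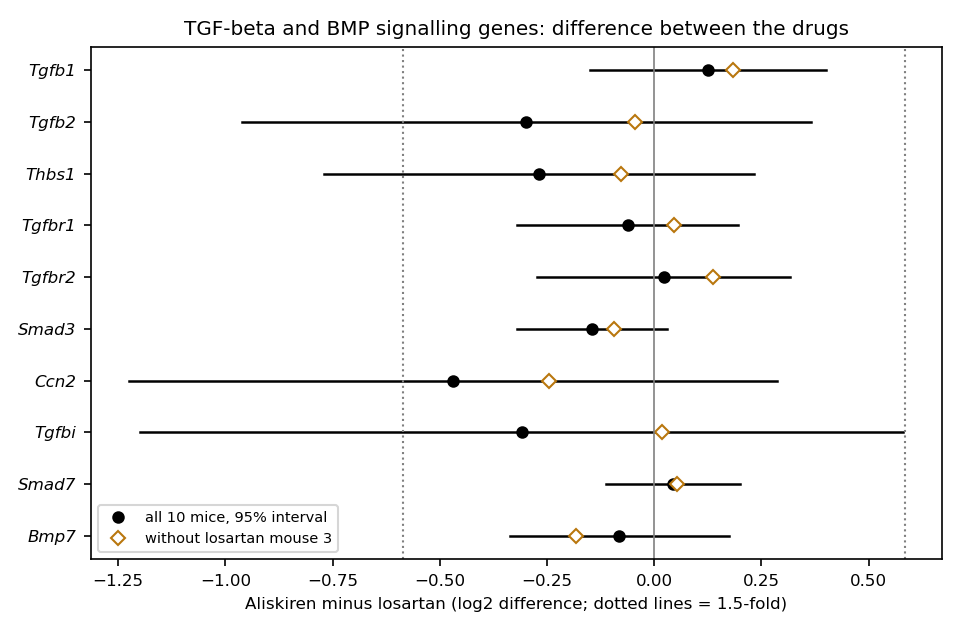
Aliskiren minus losartan for each gene on the log2 scale, as filled points with 95% intervals from limma for all 10 mice and as open diamonds without losartan mouse 3. Every interval includes 0, and leaving out that mouse changes the sign for Tgfbi, at -0.31 with all mice and 0.02 without it, and for Tgfbr1, at -0.06 with all mice and 0.05 without it.

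The genes differed in how much they varied from mouse to mouse. The SD between mice of the same drug was 0.72 for Tgfbi, 0.61 for Ccn2 and 0.40 for Thbs1, which placed them at the percentiles 97.8, 96.5 and 91.5 among all genes tested. Tgfbr2, Tgfbr1 and Bmp7 were intermediate, with SDs of 0.23, 0.20 and 0.19 and percentiles between 69.4 and 76.7. Smad3 at 0.12 and Smad7 at 0.11 lay below the median SD of all genes, 0.14. The 95% interval excluded a change of 1.5-fold in both directions for 5 of the 8 tested members (both receptors, Smad3, Smad7 and Bmp7) and for 87.7% of all genes, but not for Tgfbi, Ccn2 and Thbs1.

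Several of the genes varied together. Across the 10 mice, Tgfb2 and Tgfbi had a Pearson's r of 0.95 (permutation adjusted p = 0.00203 over 45 pairs) and a Spearman's rho of 0.93 (adjusted p = 0.0135). The value was 0.95 with drug means subtracted, 0.96 within aliskiren mice and 0.95 within losartan mice. Tgfbi and Ccn2 had r = 0.93 (adjusted p = 0.00203) and rho = 0.85 (adjusted p = 0.051), with 0.90 within aliskiren mice and 0.97 within losartan mice. Without the 2 mice farthest from the median of the first gene, r was 0.85 for Tgfb2 and Tgfbi (permutation p = 0.005) and 0.87 for Tgfbi and Ccn2 (permutation p = 0.00495).

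Of the 45 pairs of these genes, 15 passed at a Benjamini-Hochberg adjusted permutation p under 0.05 by Pearson's r, 14 of them positive and 1 negative. The 14 lay among Tgfb2, Thbs1, Tgfbr1, Tgfbr2, Ccn2 and Tgfbi, with every pair of these passing except Tgfbr2 with Ccn2 at r = 0.61. By Spearman's rho 1 of the 45 pairs passed, Tgfb2 with Tgfbi. With drug means subtracted and mice permuted within drugs, 16 pairs passed. The 2 mice farthest from the median of the first gene differed between pairs. Without them, 6 of the 15 pairs had a permutation p under 0.05: Tgfb2 with Tgfbi, Ccn2, Thbs1, Tgfbr1 and Tgfbr2, and Tgfbi with Ccn2. These 6 pairs left out losartan mouse 3 and aliskiren mouse 4 and kept aliskiren mouse 1. Without losartan mouse 3 and aliskiren mouse 1 instead, Tgfb2 was at r = 0.39 with Tgfbr1 and 0.54 with Tgfbr2. Tgfb2 was then at 0.71 with Ccn2, 0.74 with Thbs1 and 0.85 with Tgfbi, and Tgfbi with Ccn2 was at 0.85. The other 9 pairs did not pass without their 2 farthest mice, with r from -0.29 to 0.67 among the 8 left. Without losartan mouse 3 alone, 1 pair passed. Losartan mouse 3 was the highest mouse for 7 of the 10 genes, and for 29.2% of all genes tested. Among tested markers it was highest for 9 of 9 of fibroblasts and mural cells, 8 of 9 of macrophages, 4 of 4 of perirenal fat and 4 of 4 of tubular injury. It was highest for 2 of 10 loop, distal tubule and collecting duct markers, 0 of 10 proximal tubule markers and 0 of 4 podocyte markers. The part of other cell types in these relations was not tested.

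The correlations of Bmp7 with the other 9 genes were all negative with all mice, from -0.85 with Tgfbr1 to -0.06 with Smad7. Over all mice only Tgfbr1 passed (r = -0.85, permutation adjusted p = 0.0157), with rho = -0.62 (adjusted p = 0.198), -0.92 with drug means subtracted, -0.95 within aliskiren mice and -0.93 within losartan mice. That relation rests on losartan mouse 3 and aliskiren mouse 1: without them r was -0.29 (permutation p = 0.469). Without losartan mouse 3 alone it was -0.71 (permutation adjusted p = 0.264). With the mean of all probe sets of each gene it was -0.60 (permutation adjusted p = 0.304). Bmp7 with Tgfbi was at -0.70 (permutation adjusted p = 0.0693) and with Ccn2 at -0.61 (permutation adjusted p = 0.116). With drug means subtracted, Bmp7 with Ccn2 passed as well (r = -0.78, permutation adjusted p = 0.0478), and Bmp7 with Tgfbi was at -0.80 (permutation adjusted p = 0.0529). Without losartan mouse 3 alone, Bmp7 was at -0.32 with Ccn2 and -0.41 with Tgfbi. Without losartan mouse 3 and aliskiren mouse 1 both turned positive, to 0.39 with Ccn2 and 0.16 with Tgfbi. Bmp7 was then also positive with Tgfb2 (0.45), Thbs1 (0.58) and Smad3 (0.34), and negative with Tgfb1 (-0.20), Tgfbr2 (-0.09) and Smad7 (-0.84).

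Smad7 passed with no other gene. Its correlations with the other 9 genes ran from -0.36 to 0.07, and the lowest permutation adjusted p was 0.394. Smad3 reached r = 0.66 with Tgfb2 (permutation adjusted p = 0.0974) and Tgfb1 r = 0.59 with Tgfbi (permutation adjusted p = 0.13), so neither passed with any of its 9 partners over all mice. With drug means subtracted, Tgfb1 passed with Tgfb2 (r = 0.73, permutation adjusted p = 0.0254) and with Tgfbi (r = 0.72, permutation adjusted p = 0.026), and Smad3 with no gene. Within losartan mice Tgfb1 and Tgfb2 ran together at 0.98, against 0.70 within aliskiren mice, a difference that was not tested.

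**Figure D3:**
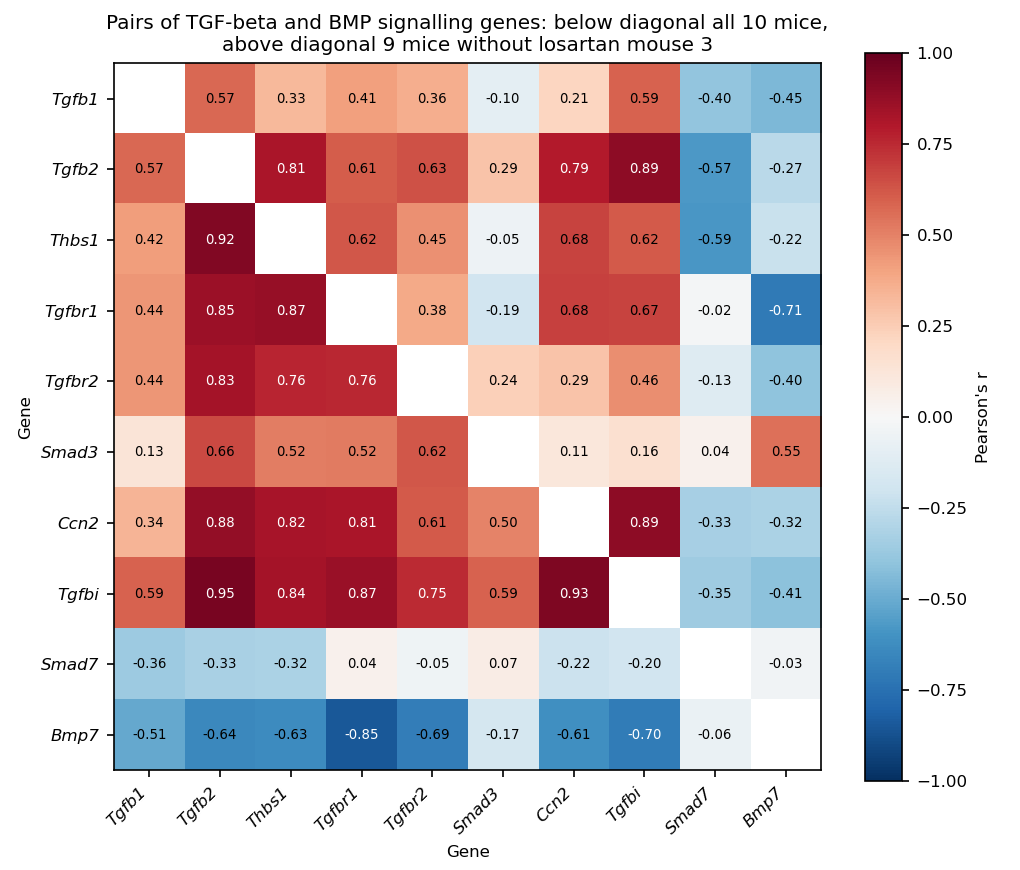
Pearson's r for the 45 pairs of genes, with all 10 mice below the diagonal and without losartan mouse 3 above it. The block from Tgfb2 to Tgfbi, which includes Smad3, is positive below the diagonal and paler above it. Above the diagonal Smad3 is at -0.19 with Tgfbr1 and at -0.05 with Thbs1. Tgfbr2 with Ccn2 is at 0.29 there, while Tgfb2 with Tgfbi stays at 0.89.

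A mean of the 5 profibrotic genes Tgfb1, Tgfb2, Thbs1, Ccn2 and Tgfbi, each centred on its mean over the 10 mice, put the balance with Bmp7 and Smad7 into a value per mouse. The profibrotic mean minus Bmp7 was 0.72, -0.24, -0.30, -0.52 and -0.06 in aliskiren mice 1 to 5, against 0.16, -0.07, 1.33, -0.64 and -0.36 in losartan mice 1 to 5, on the log2 scale. It was highest in losartan mouse 3 and aliskiren mouse 1, and both groups held mice above and below 0. The group means were -0.08 ± 0.48 with aliskiren and 0.08 ± 0.76 with losartan (SD, n = 5 each), a difference of -0.16 that turned to 0.15 without losartan mouse 3. Against Smad7 the means were -0.14 ± 0.46 with aliskiren and 0.14 ± 0.54 with losartan, a difference of -0.29 that was -0.09 without that mouse.

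**Figure D4:**
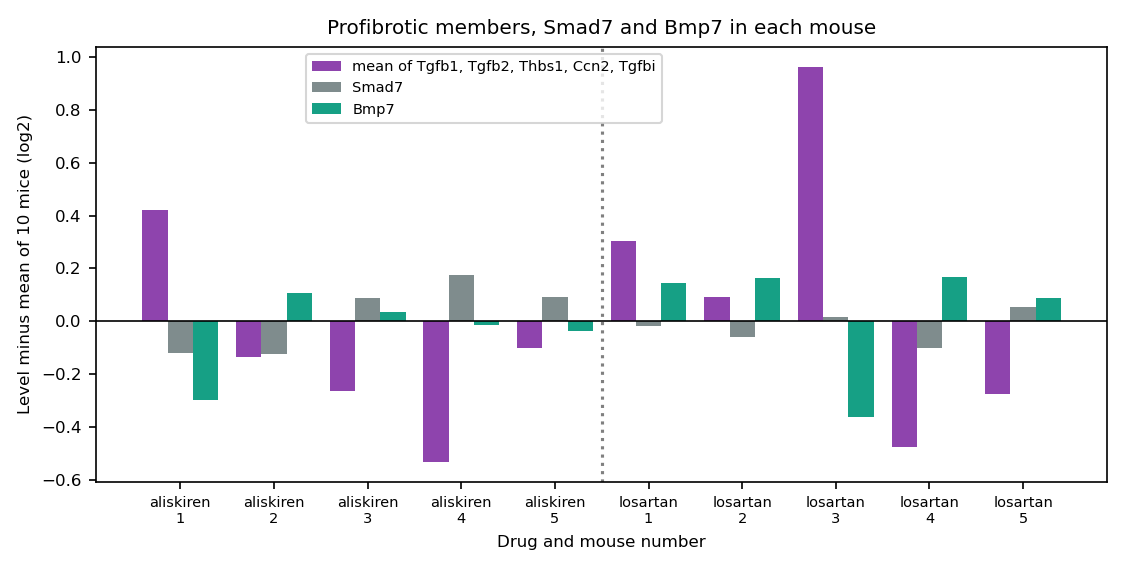
Centred log2 level of the 5 profibrotic genes (mean), Smad7 and Bmp7 in each mouse, as bars from the mean of the 10 mice. The profibrotic mean is highest at 0.96 in losartan mouse 3 and at 0.42 in aliskiren mouse 1, the mice with the lowest Bmp7, and Smad7 bars stay between -0.13 and 0.18.

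The genes were also set beside a tubular injury marker and a matrix gene over the 10 mice, as 20 relations adjusted together. Havcr1, which encodes the injury molecule KIM-1, ran with Tgfb2 at r = 0.88 (permutation adjusted p = 0.0053; rho = 0.85, adjusted p = 0.0128) and with Thbs1 at r = 0.87 (permutation adjusted p = 0.0053; rho = 0.87, adjusted p = 0.0128). With drug means subtracted these were 0.93 and 0.93. Havcr1 ran with Tgfb1 at r = 0.77 (permutation adjusted p = 0.0185; rho = 0.71, adjusted p = 0.0435), and this was 0.80 without losartan mouse 3. The Tgfb1 values come from 1 probe set below the level filter, and the other Tgfb1 probe set ran at r = -0.29 with it. Bmp7 ran against Havcr1 at r = -0.68 (permutation adjusted p = 0.0437; rho = -0.41, adjusted p = 0.295), and without losartan mouse 3 and aliskiren mouse 1 r turned to 0.15.

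Fn1, the gene of the matrix protein fibronectin and itself a TGF-beta target, ran with Tgfb2 at r = 0.96 (permutation adjusted p = 0.0002; rho = 0.95, adjusted p = 0.0016) and with Tgfbi at r = 0.94 (permutation adjusted p = 0.0014; rho = 0.93, adjusted p = 0.0033). Without the 2 mice farthest from the median, here losartan mouse 3 and aliskiren mouse 4, these were 0.88 and 0.85. Ccn2 with Fn1 was at r = 0.84 in all mice and at 0.90 without its 2 farthest mice, losartan mice 1 and 3. It was 0.72 without losartan mouse 3 alone and 0.55 without losartan mouse 3 and aliskiren mouse 1. Leaving out the latter 2 mice, Tgfb2 with Fn1 was at 0.88 and Tgfbi with Fn1 at 0.82. In all, 14 of the 20 relations passed by Pearson's r, 7 with each gene, and 5 of the 14 had a permutation p under 0.05 without the 2 farthest mice: Tgfb1 and Tgfb2 with Havcr1, and Tgfb2, Tgfbi and Ccn2 with Fn1. Smad7 and Smad3 passed with neither gene.

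The genes whose pattern over the 10 mice was most like that of Tgfbi, among 11485 compared and with drug means subtracted, were Sla at r = 0.99, Adam17 at 0.98 and Tmem119 at 0.98. Adam17 encodes a membrane sheddase and Sla a Src-like adaptor of lymphoid and myeloid cells. For Ccn2 they were Fhl2 at 0.97, Prelp at 0.96 and Cxcl14 at 0.95, where Prelp encodes a small leucine-rich matrix proteoglycan and Cxcl14 a chemokine. For Bmp7 they were Klf1 at 0.98, Pgghg at 0.98 and Gorasp1 at 0.98. These values were picked as the highest and carry no p.

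Beyond the 10 genes, 107 others of the pathway were listed, of which 99 had a probe set of their own and 79 were tested. None passed the limma threshold, and 55 had a lower and 24 a higher value with aliskiren, with a median difference of -0.06. At an unadjusted p under 0.05 there were 3 lower and 2 higher, against a background of 2.53% of all genes lower and 2.19% higher. Without losartan mouse 3, 26 of the 79 had a lower value and the median was 0.07, where 50.6% of all genes tested were lower. That mouse was the highest of all 10 for 49 of the 79 genes, and for 29.2% of all genes tested.

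Among BMP ligands and antagonists, 9 of 13 tested genes had lower values (median -0.02), and 6 of 13 without losartan mouse 3 (median 0.01). Grem1, which encodes gremlin, a secreted trap for BMP7 and other BMPs, had 6.56, 6.97, 6.31, 7.11 and 7.07 in aliskiren mice 1 to 5, against 6.61, 7.54, 8.27, 8.11 and 7.95 in losartan mice 1 to 5. Losartan mouse 1 lay among the aliskiren mice and the other 4 losartan mice lay above all of them. The difference was -0.89 (SE 0.30, unadjusted limma p = 0.0126, adjusted p = 0.945, exact permutation p = 0.0397), and -0.75 without losartan mouse 3. Bmp6 had a difference of -0.17 (SE 0.15) and Bmp4 of -0.10 (SE 0.10). Without that mouse they were at -0.10 for Bmp6 and -0.17 for Bmp4.

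BMP receptors and targets had 6 of 10 lower values (median -0.01), and 2 of 10 without losartan mouse 3 (median 0.08). The type I receptor gene Bmpr1b averaged 6.495 ± 0.27 with aliskiren and 6.88 ± 0.26 with losartan (SD, n = 5 each), a difference of -0.38 (SE 0.15, unadjusted limma p = 0.031, exact permutation p = 0.0159). It was -0.21 with the mean of all its probe sets. Id4, of the inhibitor of differentiation family that BMPs induce, had 9.53, 9.14, 9.72, 10.41 and 9.92 in aliskiren mice 1 to 5, against 8.85, 9.72, 8.48, 9.56 and 8.66 in losartan mice 1 to 5. Losartan mice 2 and 4 lay within the aliskiren range, the other 3 below it. Its difference was 0.69 (SE 0.29, unadjusted limma p = 0.0367, exact permutation p = 0.0714), and Id2, of the same family, was at 0.17 (SE 0.10), or -0.01 with the mean of its probe sets. The limma adjusted p was 0.945 for both Bmpr1b and Id4.

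Among SMADs and their regulators 10 of 14 genes had lower values (median -0.09), and 7 of 14 without losartan mouse 3 (median 0.01). Ppm1a, a phosphatase that acts on SMAD2 and SMAD3, was the 1 gene of the 79 whose groups did not overlap, where 0.914% of all genes tested had such groups. It lay at 10.28 to 10.3465 in aliskiren mice and 10.3495 to 10.58 in losartan mice. Its difference was -0.14 (SE 0.05, unadjusted limma p = 0.0259, adjusted p = 0.945, exact permutation p = 0.00794, the smallest this design allows). With the mean of all Ppm1a probe sets the difference was -0.0043. The BMP signal carrier gene Smad5 was at -0.20 (SE 0.09), or -0.12 with the mean of its probe sets. The corepressor gene Ski was at -0.19 (SE 0.11), or -0.11 without losartan mouse 3.

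Of 13 genes of TGF-beta latency and activation, 8 had lower values (median -0.03). Itgb8, the integrin chain that with alpha-v releases latent TGF-beta, averaged 11.68 ± 0.12 with aliskiren and 11.45 ± 0.20 with losartan (SD, n = 5 each), a difference of 0.23 (SE 0.10, unadjusted limma p = 0.0443, adjusted p = 0.945, exact permutation p = 0.0556). Furin, the protease that cuts the TGF-beta precursor, was at 0.16 (SE 0.08), and Ltbp3, a latent TGF-beta binding protein gene, at -0.19 (SE 0.16), or -0.04 without losartan mouse 3. Without that mouse 3 of the 13 genes were lower and the median was 0.12.

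The count for TGF-beta target genes depended on a single mouse. With all mice 13 of 17 were lower with aliskiren (median -0.19), and without losartan mouse 3, which held the highest value for 16 of the 17, 2 were lower (median 0.20). The genes of smallest p were Nox4, an NADPH oxidase of the tubule, at -0.27 (SE 0.18), Snai2 at -0.31 (SE 0.21) and Junb at 0.20 (SE 0.16). Without that mouse Snai2 was at -0.18 and Junb at 0.34. The 3 tested CCN and thrombospondin genes, Ccn1, Ccn4 and Thbs2, were at -0.15, -0.13 and -0.10 with all mice, and at 0.10, 0.02 and 0.26 without losartan mouse 3. Of 7 other TGF-beta and activin receptor genes 5 were lower (median -0.04), led by Eng, the co-receptor endoglin, at -0.19 (SE 0.11), with Acvr1b at -0.04 (SE 0.07) and Acvr2b at -0.10 (SE 0.17), or -0.20 without losartan mouse 3. Of 3 other ligands 2 were lower, with Inhbb at 0.07 (SE 0.10), Gdf11 at -0.06 (SE 0.10) and Inhba at -0.03 (SE 0.07). Without losartan mouse 3 these were 0.01 for Inhbb, -0.12 for Gdf11 and -0.0053 for Inhba.

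**Figure D5:**
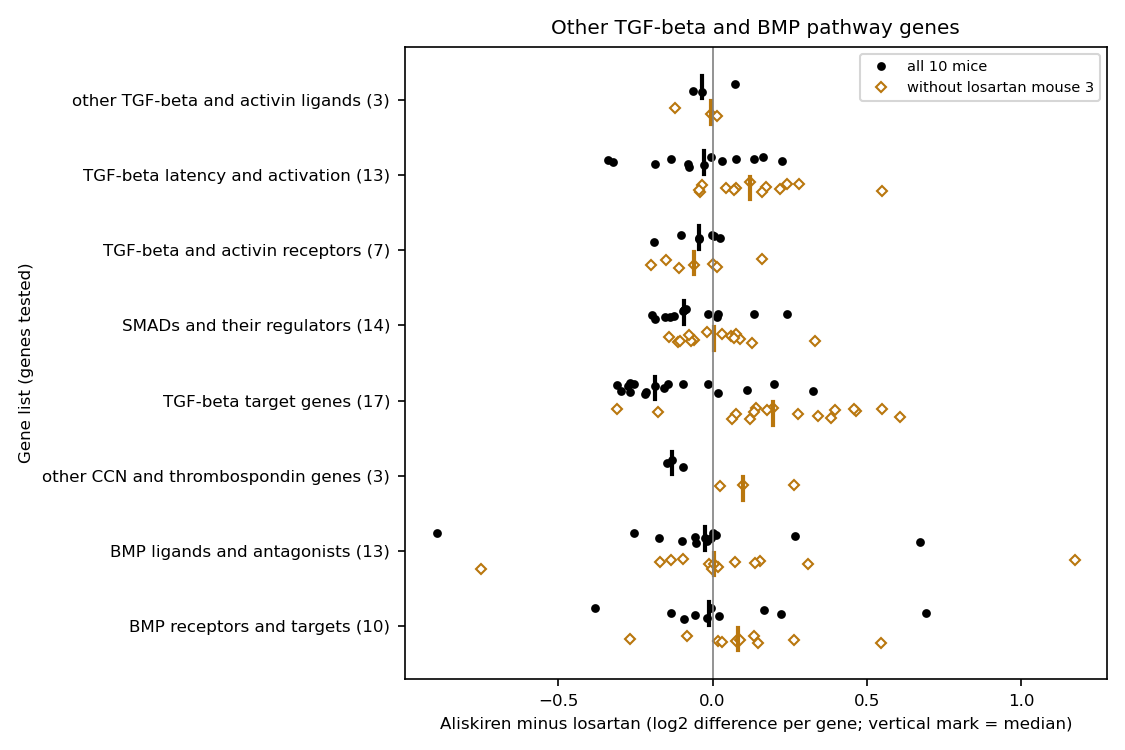
Aliskiren minus losartan (log2) for each tested gene of 8 pathway lists, as filled circles with all 10 mice and open diamonds without losartan mouse 3, with vertical marks at the list medians. The median of the TGF-beta target genes is at -0.19 with all mice and at 0.20 without that mouse.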

How the data were processed

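Renal cortex RNA of 10 mice, 5 per drug, was hybridised to 1 Affymetrix array each. The authors deposited log2 expression values; the submitters' processing notes name RMA and Expression Console 1.1. RMA evens out overall signal between arrays. Of 45101 probe sets, 64 controls were left out, and of the other 45037, 34945 had 1 gene symbol in the platform annotation, 932 several and 9160 none. Genes were named only from the first kind.

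Aliskiren minus losartan was fitted per gene by limma (version 3.58.1, R version 4.3.3) with drug as the only term, moderated by eBayes, as a two-sided test with Benjamini-Hochberg adjustment over the genes tested, and checked on simulated data. Correlations were tested with 100000 permutations in Python 3.11.15. The number of arrays limits the precision. The genes and lists were chosen with earlier results of these data known. From each list the text names the up to 3 genes of smallest p and any gene whose groups do not overlap; some listed genes were not analysed here. Mouse numbers served as names: residuals of same-numbered mice correlated at -0.06, -0.23, -0.03, 0.42 and 0.23.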

Additional observations from a re-analysis of the deposited data

Results flagged for a closer look

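Single mice lay far from the other 4 of their drug for 9 of the 94 group values checked, where chance marks about 1 in 20. The measure was the gap of the highest or lowest mouse to its neighbour as a share of the group's range, above 0.710. In losartan mouse 3 these were Tgfbr1 at 10.39, Bmp7 at 8.08, Ski at 9.23, Ccn4 at 6.59, Bmpr1b at 7.33, Krt19 at 9.07 and the perirenal fat marker level at 12.48. In losartan mouse 2 it was Acvr1b at 10.05, and in aliskiren mouse 1 it was Bmp4 at 9.44.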

How the results depend on the processing

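The counts of genes called (0 of 11486, with 542 genes at unadjusted p under 0.05), of the 10 genes called (0) and of pathway genes called (0) with limma stayed at 0 under every alternative: no level filter, a filter at the 75th percentile, the mean of all probe sets of a gene, equal array medians, quantile normalization, an ordinary t statistic, array weights, each mouse left out, and losartan mouse 3 and aliskiren mouse 1 left out together. With the mouse number as a replicate block it was also 0, and 450 genes had an unadjusted p under 0.05. In that fit Ccn2 reached an unadjusted p of 0.0481, and values under 0.05 also occurred for Bmp7 without losartan mouse 3 (0.0454) and Smad3 without losartan mouse 4 (0.036). The labels do not say whether equal numbers pair the mice. Residuals of same-numbered mice correlated from -0.23 to 0.42, which does not settle it. The pathway genes with a lower value, 55 of 79, were 33 of 45 with the 75th percentile filter and from 26 (without losartan mouse 3) to 61 with a mouse left out. The 15 pairs called were 6 with the mean of all probe sets and from 1 (without losartan mouse 3) to 18 with a mouse left out.

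With the mean of all probe sets the difference turned for Tgfbr1 (0.0113), Tgfbr2 (-0.0516), Inhba (0.0597), Acvr1b (0.0369), Acvr2b (0.0272), Id2 (-0.0149) and Havcr1 (-0.0567), and the correlation of Tgfbi and Smad7 turned to 0.0404. It moved Ppm1a to -0.0043, Bmpr1b to -0.21, Smad3 to -0.09, Smad5 to -0.12, Snai2 to -0.20, Ccn1 to -0.04, Ccn4 to -0.22, Thbs2 to -0.01, Inhbb to 0.12 and Vcam1 to 0.12. Array weights turned Ccn1 (0.0082) and Thbs2 (0.0456), and leaving out both mice turned Tgfbr1 (0.0027) and Thbs2 (0.0778). With a mouse left out the differences ran from -0.56 to 0.0175 for Tgfbi, from -0.11 to 0.0452 for Tgfbr1, from -0.058 to 0.14 for Tgfbr2, from -0.0638 to 0.0027 for Acvr1b, from -0.20 to 0.0402 for Acvr2b, from -0.41 to 0.14 for Ccn1, from -0.18 to 0.0233 for Ccn4, from -0.32 to 0.26 for Thbs2, from -0.55 to 0.79 for Havcr1, from -0.29 to 1.02 for Lcn2 and from -0.31 to 0.86 for Vcam1. The correlation of Tgfbi and Smad7 ran from -0.41 to 0.10, and the difference in the profibrotic mean minus Bmp7 from -0.36 to 0.15. The cause of these shifts was not tested. Tgfb1 and Tgfb2 gave signals under the level filter.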
